A study of Homo sapiens with 48 samples.

Results

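The genes MPDZ, RUNX1T1, TUBB1, TCEAL9, GAPT, LIN28B, LRP2, KSR1, CELF2 and CD8A are 10 of the 15349 genes tested in lymphoma xenografts that express different forms of the receptor NOTCH2, and they were chosen by how widely their RNA level differed among those tumours. The choice used the levels of the 4 variant-tumour groups and no numerical limit, so those levels are a description without a test. The members are tested below in a separate set of xenografts and a cell culture experiment. Other genes named below, such as relatives, neighbours and markers, are tested in the variant tumours too, in the same libraries as the choice. All 10 were read in the 12 variant-tumour libraries, where they all passed the filter on low values, and in the 24 coculture libraries, where 2 passed it. In the 12 knockout-tumour libraries 5 were read (TUBB1, LRP2, KSR1, CELF2 and CD8A), all of them past the filter, and the other 5 were not analysed here.

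All libraries come from U2932, a human diffuse large B-cell lymphoma line, with n = 3 libraries in each of 16 groups, numbered as biological replicates in the labels. The variant tumours grew from cells stably expressing NOTCH2(S2156A), NOTCH2(R2400*), NOTCH2(Q2140*) or NOTCH2(WT). The knockout tumours grew from cells labelled KLHL6-KO (KLHL6-/- NOTCH2+/+), NOTCH2-KO (KLHL6+/+ NOTCH2-/-), DKO (KLHL6-/- NOTCH2-/-) or WT (KLHL6+/+ NOTCH2+/+). Both sets of tumours were raised in NSG mice, an immunodeficient strain without mature T, B and NK cells that keeps its myeloid cells, stroma and vessels. Every group, controls included, received CHOP (cyclophosphamide, doxorubicin, vincristine and prednisone), and tumours were collected at 1 cm3. In the third experiment, KLHL6-KO and WT cells were grown on OP9 stromal cells that carry the NOTCH ligand DLL1, and were sampled at 0, 3, 8 and 12 h. The labels do not say how many cell populations or clones stand behind a group, nor whether the 3 tumours of a group came from separate mice. Where a group rests on 1 population, its genotype and that population cannot be told apart, and each p-value measures only the spread between these libraries. Depth was 11.1 to 17.4 M reads (M, mega) in coculture, 3.71 to 15.2 M reads in the knockout tumours (labelled DKO replicate 3 lowest) and 12.7 to 17.1 M reads in the variant tumours.

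NOTCH2 is a receptor of mature B cells. Binding of a ligand such as DLL1 releases its intracellular part, which joins the DNA-binding protein RBPJ in the nucleus and switches genes on, and a degradation signal at the far C-terminus, the PEST region, ends the response. An asterisk in a variant's name marks a stop codon, so R2400* and Q2140* lose C-terminal sequence, Q2140* more of it, and S2156A replaces 1 serine by alanine. KLHL6 is a substrate adaptor of the CUL3 ubiquitin ligase. The members come from unrelated families: signalling and surface proteins of blood cells (GAPT, an adaptor that binds GRB2; CD8A, a co-receptor chain best known from T cells; KSR1, a scaffold of the RAF, MEK and ERK kinases), regulators of RNA and transcription (LIN28B, which blocks maturation of let-7 microRNAs; CELF2, a splicing factor; RUNX1T1, a corepressor of the ETO family; TCEAL9, of a family resembling an elongation factor), a tubulin of platelets and their precursors (TUBB1), a multi-PDZ scaffold of cell junctions (MPDZ) and a large endocytic receptor of absorptive epithelia (LRP2, megalin).

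The DNA before the start sites of 3 members is shown because they stand for the patterns below: GAPT and TCEAL9, whose profiles over the variant tumours are the closest pair among the members, and MPDZ, which is far higher in the NOTCH2(WT) tumours. The stretches are from RefSeq (GRCh38.p14), 5′ to 3′ on the gene's strand, within the 250 bases before the start and outside annotated exons: GAPT at chr5:58491185-58491434 (plus strand), TCEAL9 at chrX:103356256-103356488 (plus strand) and MPDZ at chr9:13279693-13279942 (minus strand). Capitals mark a match to GTGGGAA or its other strand TTCCCAC, the core that RBPJ binds.
GAPT: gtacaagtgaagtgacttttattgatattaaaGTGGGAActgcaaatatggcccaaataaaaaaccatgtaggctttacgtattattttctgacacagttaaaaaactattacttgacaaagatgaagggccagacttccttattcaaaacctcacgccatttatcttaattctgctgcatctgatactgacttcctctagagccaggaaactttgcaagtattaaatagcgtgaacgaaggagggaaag
TCEAL9: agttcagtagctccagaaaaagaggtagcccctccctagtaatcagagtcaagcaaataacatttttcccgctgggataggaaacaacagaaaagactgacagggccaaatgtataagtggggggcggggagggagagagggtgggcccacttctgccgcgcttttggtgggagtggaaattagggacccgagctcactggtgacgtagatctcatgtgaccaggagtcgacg
MPDZ: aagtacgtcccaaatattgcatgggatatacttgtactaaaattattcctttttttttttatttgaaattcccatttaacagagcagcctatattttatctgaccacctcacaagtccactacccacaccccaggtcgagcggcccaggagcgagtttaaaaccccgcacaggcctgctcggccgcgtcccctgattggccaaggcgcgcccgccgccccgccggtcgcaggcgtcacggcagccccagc
The GAPT stretch holds 1 such match, and those of TCEAL9 and MPDZ hold none. RefSeq start sites were matched for 9 of the 10 members, with 24 windows of 250 bases. Of those windows 3 hold the motif, where 5.43% of all 35116 windows do. They are 1 of 1 window of GAPT, 1 of 10 of CELF2 and 1 of 4 of CD8A. A gene with more start sites has more windows in which a match can occur. A match is a string of letters and does not show that RBPJ binds there.

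Levels below are normalised counts, which are reads divided by a size factor of the library, and differences are on the scale of log2(normalised count + 2), which shrinks the differences of low genes. Levels are compared between groups for 1 gene at a time and not between genes. The levels of TCEAL9, GAPT, LIN28B, CD8A and TUBB1 were highest in the Q2140* tumours, those of LRP2, KSR1 and CELF2 in the S2156A tumours, and those of MPDZ and RUNX1T1 in the NOTCH2(WT) tumours. The S2156A tumours had the lowest mean of 6 of the 10 genes and the highest of 3. The range between the highest and lowest group means ran from 1.77 (CELF2) to 4.67 (GAPT) on the log2 scale, while the median over all 15349 genes was 0.30 and 5.49% of genes had a range of at least 1. On this scale 0 of all genes tested had a wider range than GAPT, and 200 had a wider one than CELF2. The GAPT rank depends on the pseudocount, since its lowest group rests on 7 reads: with a pseudocount of 8 in place of 2, GAPT differed from NOTCH2(WT) by -1.17 in S2156A and 2.30 in Q2140*, in place of -2.00 and 2.67, and MPDZ by -3.82 in S2156A, so that MPDZ had the wider range of these 2 genes.

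**Figure D1:**
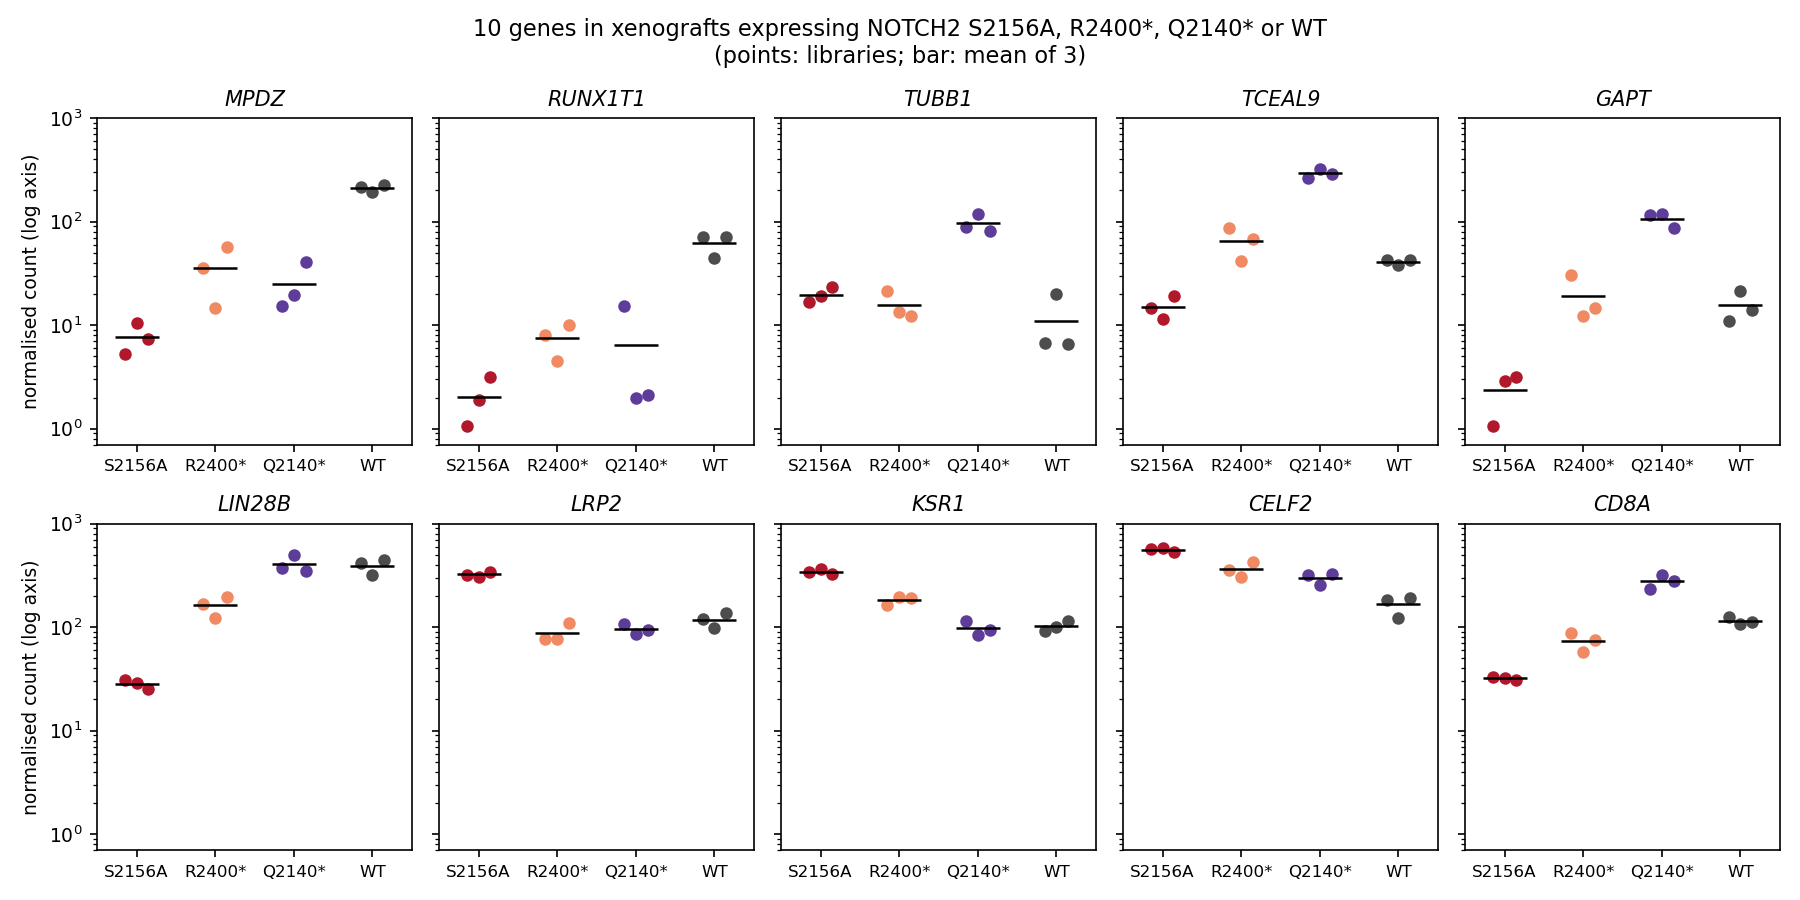
Normalised counts of the 10 genes in each library (points, log axis) of the tumours expressing NOTCH2 S2156A, R2400*, Q2140* or WT, with the mean of 3 libraries as a bar. MPDZ and RUNX1T1 are highest in the NOTCH2(WT) tumours, TUBB1, TCEAL9, GAPT and CD8A in the Q2140* tumours, and LRP2, KSR1 and CELF2 in the S2156A tumours; LIN28B is lowest in the S2156A tumours.

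Positions of the members below are those of GENCODE 29 on GRCh38, and each gives the whole gene. The blood-cell signalling genes went in different directions. GAPT lies at chr5:58491435-58497090 on the plus strand. GAPT had 1.05, 2.87 and 3.17 normalised counts in the S2156A tumours, 30.5, 12.3 and 14.5 in the R2400* tumours, 115.2, 118.5 and 87.5 in the Q2140* tumours, and 10.9, 21.6 and 14.1 in the NOTCH2(WT) tumours. The Q2140* libraries are above all others and the S2156A libraries below all others, where they rest on 7 reads in all against 53 reads in the NOTCH2(WT) tumours, and the R2400* and NOTCH2(WT) libraries overlap. On the ratio of means the Q2140* level was 6.88-fold that of the NOTCH2(WT) tumours. CD8A lies at chr2:86784610-86808396 on the minus strand. CD8A had 32.6, 32.5 and 30.6 normalised counts in the S2156A tumours, 87.0, 57.1 and 74.7 in the R2400* tumours, 231.5, 317 and 278.6 in the Q2140* tumours, and 124.7, 107.2 and 112.9 in the NOTCH2(WT) tumours. CD8A is the member whose 4 groups are separate in 6 of 6 pairs, in the order Q2140*, NOTCH2(WT), R2400* and S2156A from high to low, with a mean 2.40-fold that of NOTCH2(WT) in the Q2140* tumours and 0.278-fold in the S2156A tumours. Among 12 tested transmembrane adaptors of immune cells, against NOTCH2(WT), 1 rose and 3 fell in the S2156A tumours, 0 rose and 1 fell in the R2400* tumours, and 1 rose and 1 fell in the Q2140* tumours. Of all genes tested, 15.2% were called in the S2156A, 8.05% in the R2400* and 20.5% in the Q2140* comparison with NOTCH2(WT).

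KSR1, at chr17:27456470-27626438 on the plus strand, was ordered the other way. It had 341.9, 362.1 and 328.3 normalised counts in the S2156A tumours, 165.0, 193.8 and 191.7 in the R2400* tumours, 114.1, 83.0 and 93.9 in the Q2140* tumours, and 91.8, 100.3 and 115.7 in the NOTCH2(WT) tumours. The S2156A libraries lie above all others, the R2400* libraries between them and the rest, and the Q2140* and NOTCH2(WT) libraries overlap. The S2156A mean was 3.35-fold that of NOTCH2(WT). Of 17 tested genes of the RAF, MEK and ERK chain that KSR1 holds together, 1 rose and 2 fell in the S2156A tumours, 1 rose and 1 fell in the R2400* tumours, and 1 rose and 4 fell in the Q2140* tumours, against NOTCH2(WT).

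Because CD8A is a T-cell marker elsewhere, the other markers of T and NK cells were read in the same libraries. The sum over the 14 of 15 listed markers that have a row was 571.4 to 590.1 normalised counts in the S2156A tumours, 618.2 to 635.2 in the R2400* tumours, 510.5 to 561.5 in the Q2140* tumours and 521.4 to 580.9 in the NOTCH2(WT) tumours. CD8B, which pairs with CD8A on T cells, averaged 0.67 normalised counts in the S2156A, 2.31 in the R2400*, 2.16 in the Q2140* and 0.91 in the NOTCH2(WT) tumours. The markers at 0 in a whole group were CD2 and KLRD1 in the S2156A tumours, CD3G and CD2 in the R2400* tumours, CD2 and GZMB in the Q2140* tumours, and CD28 and KLRD1 in the NOTCH2(WT) tumours. Of the 5 markers that passed the filter, against NOTCH2(WT), 0 were called in the S2156A and 0 in the R2400* tumours (limma, both directions), and in the Q2140* tumours 1 rose and 1 fell. CD3E, a chain of the T-cell receptor complex, rose in the Q2140* tumours to 31.6 ± 7.76, against 10.15 ± 7.74 normalised counts in the NOTCH2(WT) tumours (SD, n = 3 each; log2 difference 1.63 ± 0.36 SE, limma adjusted p = 0.0019). GZMB, a protease of killer cells, was at 0 in all Q2140* libraries, against 19.9 ± 4.68 in NOTCH2(WT) (limma adjusted p = 4.74e-08). In cultured U2932 cells at 0 h, scaled apart from the tumours, all 15 markers had a row. There they summed to 295.8 to 322.3 normalised counts in WT and 121.6 to 138 in KLHL6-KO libraries. The tumour libraries are bulk, in which fewer cells of a type and less RNA per cell cannot be told apart. The source of these RNAs in the tumours was not tested.

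The regulators of RNA and transcription gave 3 patterns. LIN28B lies at chr6:104936616-105083332 on the plus strand. LIN28B had 30.5, 28.7 and 25.3 normalised counts in the S2156A tumours, 168.6, 123.2 and 195 in the R2400* tumours, 368.6, 491.8 and 349.1 in the Q2140* tumours, and 411.9, 319 and 444.9 in the NOTCH2(WT) tumours. The Q2140* and NOTCH2(WT) libraries overlap, the R2400* libraries are below them, and the S2156A libraries are lowest, with a mean 0.0719-fold that of NOTCH2(WT). Of the 11 tested genes of a list on LIN28 and let-7 (LIN28A, the IGF2BP and HMGA genes, and processing enzymes of microRNAs and of let-7), against NOTCH2(WT), 0 rose and 2 fell in the S2156A tumours, 0 rose and 1 fell in the R2400* tumours, and 2 rose and 1 fell in the Q2140* tumours.

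CELF2 lies at chr10:10798397-11336675 on the plus strand. CELF2 had 561.7, 577.1 and 535.2 normalised counts in the S2156A tumours, 359.7, 301.3 and 425.7 in the R2400* tumours, 315.9, 256.8 and 328.8 in the Q2140* tumours, and 184.5, 121.9 and 190.0 in the NOTCH2(WT) tumours. All 3 variants lie above NOTCH2(WT), S2156A the highest with a mean 3.37-fold that of NOTCH2(WT), and the R2400* and Q2140* libraries overlap. Among the 4 tested relatives of the CELF and MBNL families, 1 fell in the S2156A, 1 in the R2400* and 3 in the Q2140* tumours, and 0 rose in any of these 3 comparisons (limma).

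RUNX1T1 lies at chr8:91954967-92103286 on the minus strand. RUNX1T1 had 1.05, 1.91 and 3.17 normalised counts in the S2156A tumours, 8.07, 4.48 and 10.03 in the R2400* tumours, 15.4, 1.98 and 2.13 in the Q2140* tumours, and 70.8, 44.1 and 70.5 in the NOTCH2(WT) tumours. The NOTCH2(WT) libraries are far above the rest, the Q2140* libraries overlap both other variants, and 1 library sets the Q2140* mean, which is 6.49 with replicate 1 and 2.05 without it. The S2156A value rests on 6 reads in all. Of 12 other ETO, RUNX and corepressor genes, 0 rose and 1 fell in the S2156A tumours, 2 rose and 3 fell in the R2400* tumours, and 2 rose and 4 fell in the Q2140* tumours, against NOTCH2(WT).

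TCEAL9 lies at chrX:103356489-103358462 on the plus strand. TCEAL9 had 14.7, 11.47 and 19.0 normalised counts in the S2156A tumours, 87.0, 41.4 and 68.0 in the R2400* tumours, 263.3, 325.9 and 289.3 in the Q2140* tumours, and 43.0, 38.0 and 42.3 in the NOTCH2(WT) tumours. The Q2140* libraries are highest, with a mean 7.12-fold that of NOTCH2(WT), the S2156A libraries lowest, and the R2400* and NOTCH2(WT) libraries overlap. TCEAL9 lies on chromosome X among its relatives, and of the 6 tested TCEAL and BEX genes 0 rose and 4 fell in the S2156A tumours, 0 were called in the R2400* tumours, and 3 rose and 0 fell in the Q2140* tumours (limma). BEX4 fell in the S2156A tumours to 6.73 ± 4.02, against 110.5 ± 5.12 normalised counts in NOTCH2(WT) (SD, n = 3 each; log2 difference -3.82 ± 0.34 SE, limma adjusted p = 3.57e-06). BEX2 averaged 1.37 ± 0.64 normalised counts in the S2156A and 37.2 ± 15.7 in the Q2140* tumours, against 10.2 ± 1.35 in NOTCH2(WT) (SD, n = 3 each). It fell in the S2156A tumours (log2 difference -1.87 ± 0.38 SE, limma adjusted p = 0.00081) and rose in the Q2140* tumours (1.59 ± 0.38 SE, limma adjusted p = 0.0034).

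The remaining members belong to structure and uptake. MPDZ lies at chr9:13105704-13279590 on the minus strand. MPDZ had 5.26, 10.5 and 7.39 normalised counts in the S2156A tumours, 35.9, 14.6 and 56.8 in the R2400* tumours, 15.4, 19.8 and 40.6 in the Q2140* tumours, and 216.5, 195.4 and 223.9 in the NOTCH2(WT) tumours. All variant libraries are below NOTCH2(WT), the S2156A libraries lowest at a mean 0.0364-fold that of NOTCH2(WT), and the R2400* and Q2140* libraries overlap. Among 13 other polarity scaffolds 1 rose and 1 fell in the S2156A tumours, 1 rose and 1 fell in the R2400* tumours, and 1 rose and 2 fell in the Q2140* tumours, against NOTCH2(WT). LIN7A, a partner of the Crumbs and PALS1 complex, fell in the Q2140* tumours to 41.2 ± 6.11, against 121.4 ± 21.6 normalised counts in NOTCH2(WT) (SD, n = 3 each; log2 difference -1.51 ± 0.16 SE, limma adjusted p = 1.66e-07).

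LRP2 lies at chr2:169127109-169362685 on the minus strand. LRP2 had 321.9, 305.8 and 339.9 normalised counts in the S2156A tumours, 77.1, 77.3 and 109.2 in the R2400* tumours, 107.5, 84.9 and 93.9 in the Q2140* tumours, and 119.6, 97.7 and 137.3 in the NOTCH2(WT) tumours. The S2156A libraries stand alone, with a mean 2.73-fold that of NOTCH2(WT), and the other 3 groups overlap each other. Of 14 tested genes of the LDL receptor family and its partners, 4 rose and 0 fell in the S2156A tumours, 3 rose and 0 fell in the R2400* tumours, and 0 rose and 2 fell in the Q2140* tumours (limma). VLDLR, a lipoprotein receptor, rose in the S2156A tumours to 158.2 ± 7.12, against 67.9 ± 14.7 normalised counts in NOTCH2(WT) (SD, n = 3 each; log2 difference 1.22 ± 0.16 SE, limma adjusted p = 3.41e-06). DAB2, an adaptor that couples LRP2 to the endocytic coat, fell in the Q2140* tumours to 10.4 ± 1.23, against 28.7 ± 7.07 normalised counts (SD, n = 3 each; log2 difference -1.28 ± 0.27 SE, limma adjusted p = 0.0012).

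TUBB1 lies at chr20:59019254-59026654 on the plus strand. TUBB1 had 16.8, 19.1 and 23.2 normalised counts in the S2156A tumours, 21.5, 13.4 and 12.3 in the R2400* tumours, 88.9, 118.5 and 81.1 in the Q2140* tumours, and 6.74, 19.9 and 6.58 in the NOTCH2(WT) tumours. The Q2140* libraries are above all others, and the other 3 groups overlap; the NOTCH2(WT) mean is 11.1 with replicate 2 and 6.66 without it. TUBB1 overlaps ATP5F1E on the opposite strand, which stood at 2467 to 4001 normalised counts in the same libraries, and the strand setting of the authors' counting is not given in the sources used here, so reads of the pair cannot be told apart. The platelet markers, 6 of 10 with a row, summed to 103.2 to 121 normalised counts in the S2156A tumours, 86.2 to 115.9 in the R2400* tumours, 93.2 to 100.3 in the Q2140* tumours and 85.6 to 109.1 in the NOTCH2(WT) tumours. Among 12 other tubulins 0 rose and 1 fell in the S2156A tumours, and 1 rose and 1 fell in each of the R2400* and Q2140* tumours, against NOTCH2(WT).

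Over the 10 members, the libraries did not overlap for 9 members in S2156A against NOTCH2(WT) (37.6% of all genes tested), for 6 in R2400* against NOTCH2(WT) (25.9%) and for 7 in Q2140* against NOTCH2(WT) (35.6%). Between variants they did not overlap for 9 members in S2156A against R2400* (24.5% of all genes), 9 in S2156A against Q2140* (43.1%) and 6 in Q2140* against R2400* (29.5%). These counts follow from how the members were chosen.

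NOTCH2 itself and some genes listed as markers of other cell types also differed between the same groups. NOTCH2 averaged 16650 ± 1050 normalised counts in the S2156A tumours, 26470 ± 2748 in the R2400* tumours, 59620 ± 4181 in the Q2140* tumours and 15860 ± 567 in the NOTCH2(WT) tumours (SD, n = 3 each). Against NOTCH2(WT) it rose in the Q2140* tumours (log2 difference 1.91 ± 0.07 SE, limma adjusted p = 2.12e-10) and in the R2400* tumours (0.73 ± 0.07 SE, limma adjusted p = 7.7e-06), and the S2156A difference was 0.07 ± 0.07 (limma adjusted p = 0.59). The labels do not say whether the cells' own NOTCH2 gene was left intact. KLHL6 fell in the Q2140* tumours (log2 difference -0.48 ± 0.07 SE, limma adjusted p = 8.65e-05). Of 10 tested NOTCH target genes, against NOTCH2(WT), 2 rose and 3 fell in the S2156A tumours, 1 rose and 1 fell in the R2400* tumours, and 2 rose and 2 fell in the Q2140* tumours. The 10 B-cell markers summed to 78690 to 81510 normalised counts in the S2156A tumours, 75880 to 85620 in the R2400* tumours, 92210 to 96840 in the Q2140* tumours and 77550 to 79380 in the NOTCH2(WT) tumours. The 16 stromal markers summed to 554.2 to 613.3 normalised counts in the S2156A, 404.3 to 586.6 in the R2400*, 566 to 1025 in the Q2140* and 452.1 to 577.5 in the NOTCH2(WT) tumours. In the Q2140* tumours COL3A1 (log2 difference 1.58 ± 0.39 SE, limma adjusted p = 0.0079) and SPARC (1.81 ± 0.21 SE, limma adjusted p = 8.41e-07) rose against NOTCH2(WT). COL3A1 varied widely between the Q2140* libraries, at 56.9 ± 43.4, against 15.1 ± 4.95 normalised counts in NOTCH2(WT). SPARC was at 98.8 ± 22.5, against 26.5 ± 4.30 (SD, n = 3 each). The endothelial sum was 192.5 to 220.7 in the S2156A, 235.2 to 259.6 in the R2400*, 319 to 367.5 in the Q2140* and 260.3 to 354.4 normalised counts in the NOTCH2(WT) tumours. PECAM1 fell in the S2156A tumours (log2 difference -1.19 ± 0.18 SE, limma adjusted p = 3.2e-05). In cultured U2932 cells at 0 h, scaled apart from the tumours, the endothelial list summed to 350.8 to 370.4 in WT and 307 to 341.2 in KLHL6-KO libraries. The list is therefore not read only by other cell types. Macrophage markers summed to 338.9 to 421.4 normalised counts in the S2156A, 286.4 to 384.8 in the R2400*, 318.1 to 535.9 in the Q2140* and 282.2 to 319.2 in the NOTCH2(WT) tumours. Red-cell markers summed to 137.2 to 164.4 in the S2156A, 159.4 to 450.2 in the R2400*, 102.5 to 120.7 in the Q2140* and 99.4 to 140 in the NOTCH2(WT) tumours. HBB rose in the R2400* tumours (log2 difference 1.25 ± 0.32 SE, limma adjusted p = 0.046). It varied widely there, at 262.5 ± 146.9, against 100.3 ± 19.7 normalised counts in NOTCH2(WT) (SD, n = 3 each). In the same cultured WT cells at 0 h the stromal list summed to 85.8 to 118.5 normalised counts. There the macrophage list summed to 8.72 to 15.2 and the red-cell list to 0 to 0.95. In KLHL6-KO cells at 0 h the stromal sum was 48.05 to 63.2 and the macrophage sum 11.7 to 14.7, with the red-cell list at 0. The part of the NOTCH2 level and of these cell types in the members' levels was not tested.

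U2932 is known to hold a pair of subclones that differ in MYC, BCL6, MS4A1 and CD38. MS4A1, the B-cell surface protein CD20, averaged 15940 ± 290 normalised counts in the S2156A, 16940 ± 1165 in the R2400*, 21070 ± 1042 in the Q2140* and 15830 ± 211 in the NOTCH2(WT) tumours (SD, n = 3 each). MYC averaged 185.5 ± 18.3 in the S2156A, 208.5 ± 14.6 in the R2400*, 152.6 ± 23.8 in the Q2140* and 172.6 ± 18.0 in the NOTCH2(WT) tumours. CD38 averaged 3505 ± 45.6 in the S2156A, 3617 ± 221 in the R2400*, 4155 ± 415 in the Q2140* and 3461 ± 62.8 in the NOTCH2(WT) tumours. BCL6, a repressor of germinal-centre B cells, averaged 6627 ± 189 in the S2156A, 6781 ± 251 in the R2400*, 6292 ± 168 in the Q2140* and 5731 ± 200 in the NOTCH2(WT) tumours. Against NOTCH2(WT), 1 of these 4 genes rose in the S2156A, 1 in the R2400* and 3 in the Q2140* tumours, and 0 fell (limma). Of all genes tested, 15.2%, 8.05% and 20.5% were called in these comparisons. Among the 4 groups, 4 of the 4 genes were called (limma joint test), against 35.4% of all genes. Whether the share of subclones bears on the members was not tested.

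Genes with the most similar levels were found by the root mean square difference of centred log2 profiles over the 12 variant-tumour libraries. The closest pair of members was TCEAL9 and GAPT (0.42), and the genes outside the list closest to TCEAL9 were PARVG (0.37) and ERBB4 (0.42), to GAPT ERBB4 (0.57) and THNSL2 (0.58). ERBB4, a receptor tyrosine kinase of the EGFR family, averaged 16.2 normalised counts in the S2156A tumours, 84.0 in the R2400* tumours, 247 in the Q2140* tumours and 42.8 in the NOTCH2(WT) tumours. LIN28B was closest to YIPF6 (0.21), a membrane protein of the Golgi, and to DPY19L2P1 (0.27). YIPF6 averaged 27.8 normalised counts in the S2156A, 172.2 in the R2400*, 379.3 in the Q2140* and 382.8 in the NOTCH2(WT) tumours. CD8A was closest to VPREB3 (0.28), a B-lineage protein that binds nascent immunoglobulin chains, and to MX1 (0.29), an interferon-induced GTPase, which averaged 76.0 normalised counts in the S2156A, 203.9 in the R2400*, 631.9 in the Q2140* and 258.7 in the NOTCH2(WT) tumours. KSR1 was closest to SOX5 (0.23) and GALNT18 (0.25), CELF2 to GDPD5 (0.27) and IL18 (0.29), and LRP2 to FLNC (0.28) and SYT13 (0.40). The root mean square difference can grow with a gene's range. MPDZ, RUNX1T1 and TUBB1 had ranges of 4.49, 3.98 and 3.04, against 1.82, 1.77 and 1.87 for KSR1, CELF2 and LRP2. Its sizes are therefore not compared between members of unlike range. MPDZ was closest to PPP1R3A (0.67) and CACNA2D1 (0.67), RUNX1T1 to CAVIN2 (0.62) and PHLDA1 (0.72), and TUBB1 to PDE9A (0.44) and C11orf21 (0.64).

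The genes beside each member on its chromosome were then read, since they were not used to choose it. Of the 100 neighbours (the 5 nearest tested genes on either side of each member), 53 were called among the 4 groups, against 35.4% of all genes tested, and 10 were called with a range of at least 1 on the log2 scale, against 4.93% of all genes. The median range of the neighbours was 0.39. Beside LIN28B, GAPT and TUBB1, 0 of 10 neighbours each were called with a range of at least 1. The widest LIN28B neighbour had a range of 0.64, where LIN28B itself had 3.73. PART1 beside GAPT had a range of 1.73, lowest in the S2156A tumours, and was not called (limma joint adjusted p = 0.065). MIR296 beside TUBB1 had a range of 1.09 and was not called (limma joint adjusted p = 0.17). Beside TCEAL9 the wide neighbours were BEX4 (range 4.59, 139.2 kb away) and BEX2 (3.46, 45.4 kb away). Both were already given above among the TCEAL and BEX genes. TCEAL1, TCEAL3, TCEAL4 and TCEAL8, also called beside TCEAL9, are of the same family. The family count and the neighbour count therefore share genes. Beside CD8A they were REEP1 (3.02, 446.5 kb away), which averaged 3.06 in the S2156A, 11.3 in the R2400*, 37.6 in the Q2140* and 12.04 normalised counts in the NOTCH2(WT) tumours, and the pseudogene ANAPC1P1 (1.76). LGALS9, which encodes galectin-9 and lies 3.36 kb from KSR1, averaged 34.2 normalised counts in the S2156A, 27.6 in the R2400*, 23.6 in the Q2140* and 9.09 in the NOTCH2(WT) tumours (range 1.795). Beside LRP2, DHRS9 (range 2.15) had its lowest mean in the Q2140* tumours and SCN9A (range 2.85) its highest there, while LRP2 is highest in the S2156A tumours. NFIB beside MPDZ (range 1.197), CIBAR1 beside RUNX1T1 (1.183) and ECHDC3 beside CELF2 (1.504) complete the 10.

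**Figure D2:**
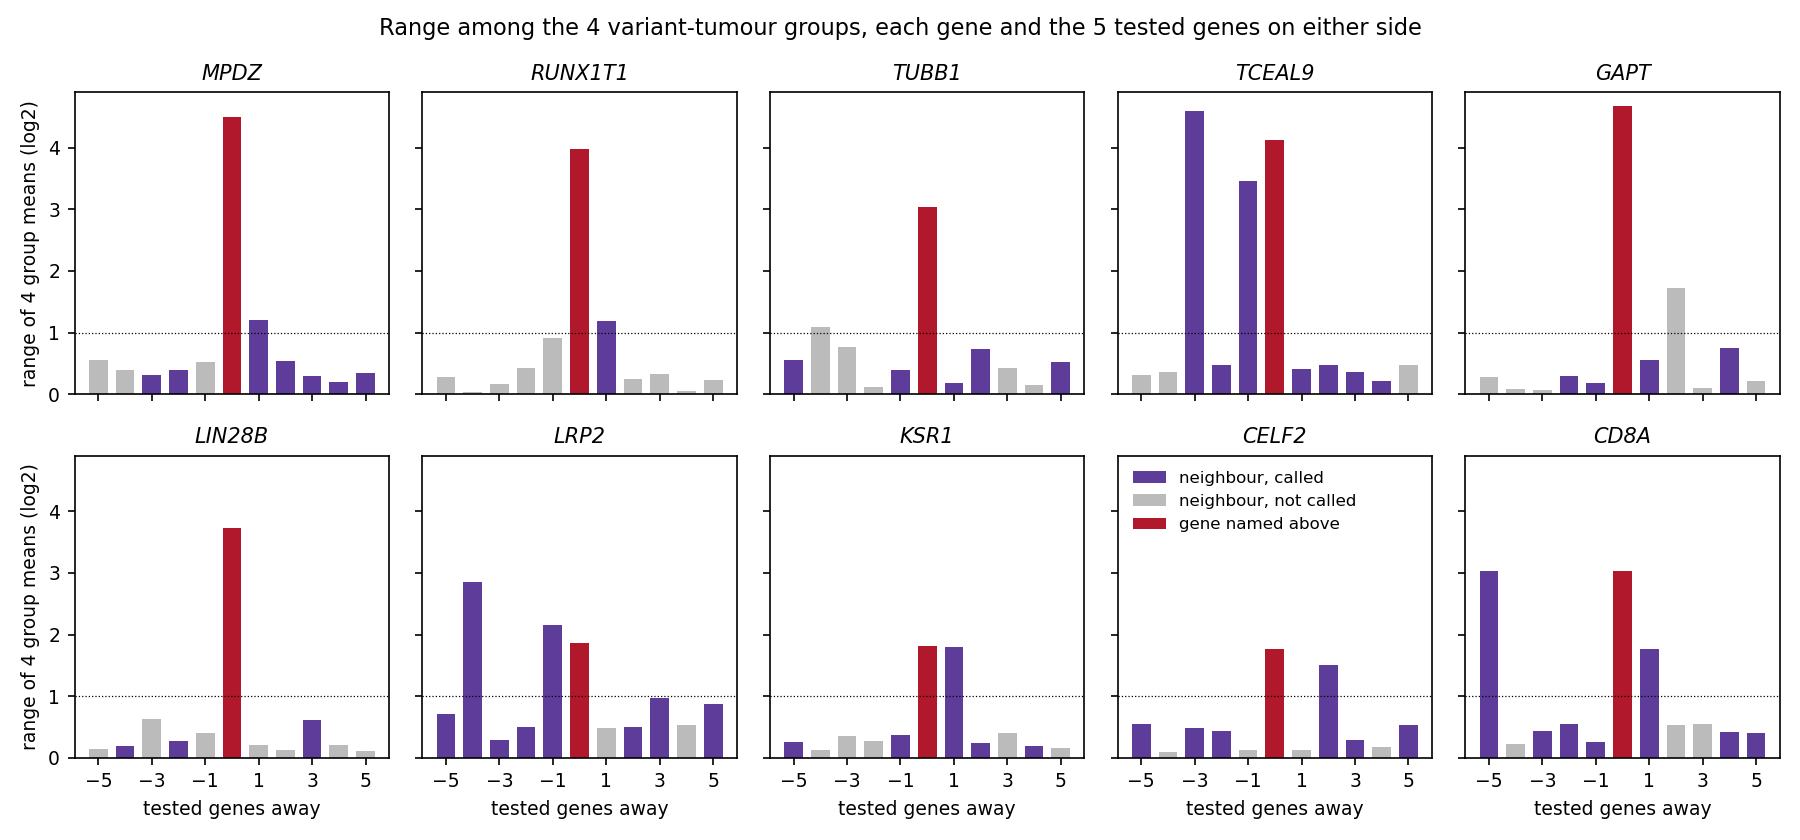
Range between the highest and lowest of the 4 variant-tumour group means (log2 scale, bars) for each gene (position 0) and the 5 nearest tested genes on either side in chromosome order, coloured by whether the neighbour was called among the 4 groups. The dotted line marks a range of 1. BEX4 and BEX2 reach 4.59 and 3.46 beside TCEAL9, while no called neighbour of LIN28B, GAPT or TUBB1 reaches 1.

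In the knockout tumours, the question is how loss of KLHL6 and of NOTCH2 changed RNA in the tumour. The RNA of the targeted genes goes against some labels. KLHL6 had 6289, 6276 and 7045 normalised counts in the tumours labelled KLHL6-KO and 3554, 5266 and 4902 in those labelled DKO, against 3478, 4781 and 4856 in WT tumours, and it was higher in the tumours labelled KLHL6-KO (log2 difference 0.59 ± 0.15 SE, limma adjusted p = 0.013). NOTCH2 had 328.8, 448.5 and 292.2 in NOTCH2-KO and 612.1, 562 and 530.5 in labelled DKO tumours, against 420.2, 850.3 and 908.6 normalised counts in WT tumours, with a log2 difference of -0.97 ± 0.21 SE in NOTCH2-KO (limma adjusted p = 0.0030) and -0.28 ± 0.21 in labelled DKO tumours (limma adjusted p = 0.43). KLHL6 was also higher in the NOTCH2-KO tumours, at 7433 ± 898 normalised counts, against 4372 ± 775 in WT tumours (SD, n = 3 each). That log2 difference was 0.77 ± 0.15 SE (limma adjusted p = 0.0012). NOTCH2 averaged 465.6 ± 23.5 in the tumours labelled KLHL6-KO, with a log2 difference of -0.56 ± 0.21 SE from WT (limma adjusted p = 0.080). Which bases were edited is not given in the labels. Every direction below in the knockout tumours rests on the labels.

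CD8A had the clearest changes of the 5 members read there. It had 33.9, 34.6 and 40.3 normalised counts in the tumours labelled KLHL6-KO, 83.1, 77.9 and 87.8 in the NOTCH2-KO tumours and 169.2, 139.3 and 193.2 in the tumours labelled DKO, against 109.8, 98.9 and 94.1 in the WT tumours. The 4 groups do not overlap. CD8A fell in the tumours labelled KLHL6-KO (log2 difference -1.43 ± 0.16 SE, limma adjusted p = 2.93e-05) and rose in the tumours labelled DKO (0.71 ± 0.16 SE, limma adjusted p = 0.013), and the NOTCH2-KO difference was -0.28 ± 0.16 (limma adjusted p = 0.20). The rise in labelled DKO tumours missed the threshold without DKO replicate 3, the shallowest library (limma adjusted p = 0.069), and with the DKO and WT libraries fitted alone (limma adjusted p = 0.066). The interaction of the KLHL6 and NOTCH2 labels was 2.41 ± 0.22 SE (limma adjusted p = 6.93e-06). The T and NK markers analysed there, 4 of 15, summed to 298.9 to 345.2 normalised counts in the tumours labelled KLHL6-KO, 217.4 to 282.6 in NOTCH2-KO and 252.2 to 320.8 in labelled DKO tumours, against 219.9 to 267.7 in WT tumours. The 4 markers did not move together: of them 1 rose and 1 fell in the tumours labelled KLHL6-KO against WT (limma). TRAC averaged 190.7 ± 41.5 normalised counts in the tumours labelled KLHL6-KO, against 123.4 ± 19.9 in WT tumours, and CD247 120.7 ± 20.2, against 87.2 ± 6.79 in WT tumours (SD, n = 3 each). CD4 averaged 10.15 ± 3.72 in the tumours labelled KLHL6-KO, against 22.1 ± 3.78 in WT tumours, and CD3E 7.92 ± 1.27, against 13.1 ± 5.56 in WT tumours (SD, n = 3 each). Their part in the CD8A differences was not tested.

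KSR1 had 153.5, 168.8 and 146.8 normalised counts in the tumours labelled KLHL6-KO, 72.4, 66.1 and 67.0 in the NOTCH2-KO tumours and 85.6, 48.0 and 78.6 in the tumours labelled DKO, against 103.5, 168.2 and 154.7 in the WT tumours. The NOTCH2-KO and labelled DKO libraries are all below the WT libraries. KSR1 fell in NOTCH2-KO tumours (log2 difference -1.003 ± 0.21 SE, limma adjusted p = 0.0019) and in labelled DKO tumours (-0.998 ± 0.21 SE, limma adjusted p = 0.0084). The DKO call was lost with the DKO and WT libraries fitted alone (limma adjusted p = 0.073). KSR1 differed by 0.16 ± 0.21 in the tumours labelled KLHL6-KO (limma adjusted p = 0.63). Both comparisons use the same WT tumours. Of 17 tested genes of the RAF, MEK and ERK chain, 0 rose and 6 fell in the tumours labelled KLHL6-KO, 1 rose and 1 fell in NOTCH2-KO tumours, and 0 were called in labelled DKO tumours (limma).

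LRP2 had 34.8, 20.3 and 22.8 normalised counts in the tumours labelled KLHL6-KO, 43.8, 45.3 and 57.4 in the NOTCH2-KO tumours and 45.8, 48.0 and 62.2 in the tumours labelled DKO, against 44.5, 39.7 and 44.3 in the WT tumours. The libraries labelled KLHL6-KO are all below WT (log2 difference -0.72 ± 0.22 SE, limma adjusted p = 0.034), a call that was lost when WT replicate 1, 2 or 3 or KLHL6-KO replicate 2 or 3 was left out (limma adjusted p = 0.054 to 0.13) and with both groups fitted alone (limma adjusted p = 0.083). The differences were 0.17 ± 0.22 in NOTCH2-KO (limma adjusted p = 0.59) and 0.26 ± 0.22 in labelled DKO tumours (limma adjusted p = 0.48).

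CELF2 had 485.1, 537.6 and 381 normalised counts in the tumours labelled KLHL6-KO, 728.3, 601.6 and 663.5 in the NOTCH2-KO tumours and 423, 507 and 478.1 in the tumours labelled DKO, against 539.1, 492.1 and 450.7 in the WT tumours. The NOTCH2-KO libraries are above the others, and CELF2 rose there (log2 difference 0.43 ± 0.12 SE, limma adjusted p = 0.016), a call lost without WT replicate 3 or NOTCH2-KO replicate 1 or 3 (limma adjusted p = 0.051 to 0.084). It differed by -0.09 ± 0.12 in the tumours labelled KLHL6-KO (limma adjusted p = 0.67) and by -0.07 ± 0.12 in labelled DKO tumours (limma adjusted p = 0.74).

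TUBB1 was low and overlapped between all groups, with 6.79, 6.75 and 18.3 normalised counts in the tumours labelled KLHL6-KO, 8.94, 12.7 and 13.04 in the NOTCH2-KO tumours and 13.9, 11.7 and 19.6 in the tumours labelled DKO, against 12.7, 15.6 and 19.9 in the WT tumours. Its differences from WT were -0.62 ± 0.34 in the tumours labelled KLHL6-KO (limma adjusted p = 0.23), -0.41 ± 0.34 in NOTCH2-KO (limma adjusted p = 0.40) and -0.09 ± 0.34 in labelled DKO tumours (limma adjusted p = 0.90). The mean of the tumours labelled KLHL6-KO is 10.6 with replicate 3 and 6.77 without it.

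In all, 2 of the 5 members were called in the tumours labelled KLHL6-KO (CD8A and LRP2, both lower; 17.5% of all genes tested were called), 2 in the NOTCH2-KO tumours (KSR1 lower and CELF2 higher; 30.7%), 2 in the tumours labelled DKO (KSR1 lower and CD8A higher; 9.36%) and 1 for the interaction (CD8A; 10.8%). Every row of those libraries holds 121 or more reads in total, and the 3 comparisons share the WT tumours.

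**Figure D3:**
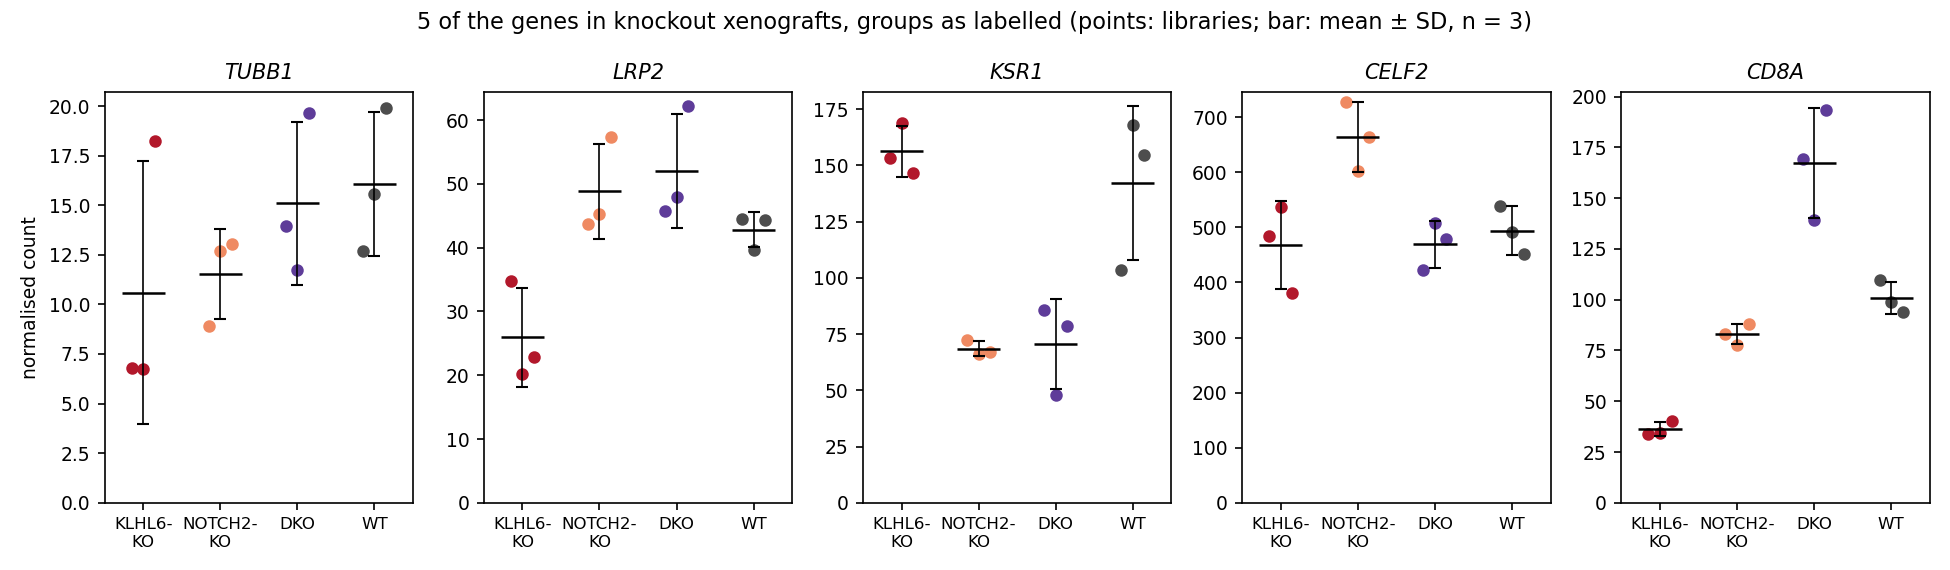
Normalised counts of the 5 members analysed in the knockout tumours, for each library (points) with mean ± SD (bars, n = 3), by labelled group. CD8A is lowest in the tumours labelled KLHL6-KO (33.9 to 40.3) and highest in those labelled DKO (139.3 to 193.2), and KSR1 is low in both groups labelled as lacking NOTCH2.

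In coculture, 8 of the 10 members stayed under the filter on low values. LIN28B had 0 reads in all 24 libraries, against a total depth of 307 M reads, which allows a level of up to 0.00977 RPM (reads per M reads of the library; 3 reads of the total; counting error only), while the variant tumours held 1.79 to 34.5 RPM. RUNX1T1 had 2 reads in all, TCEAL9 9, LRP2 14, MPDZ 42, TUBB1 46, GAPT 54 and CD8A 108. CD8A had 0.149 to 0.8004 RPM in coculture, beside 2.84 to 15.9 in the knockout tumours and 2.16 to 22.2 in the variant tumours. LRP2 had 0 to 0.160 RPM in coculture, 1.78 to 5.13 in the knockout tumours and 5.42 to 24 in the variant tumours. The 3 experiments were normalised separately and differ in setting, so these levels stand side by side without a test.

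**Figure D4:**
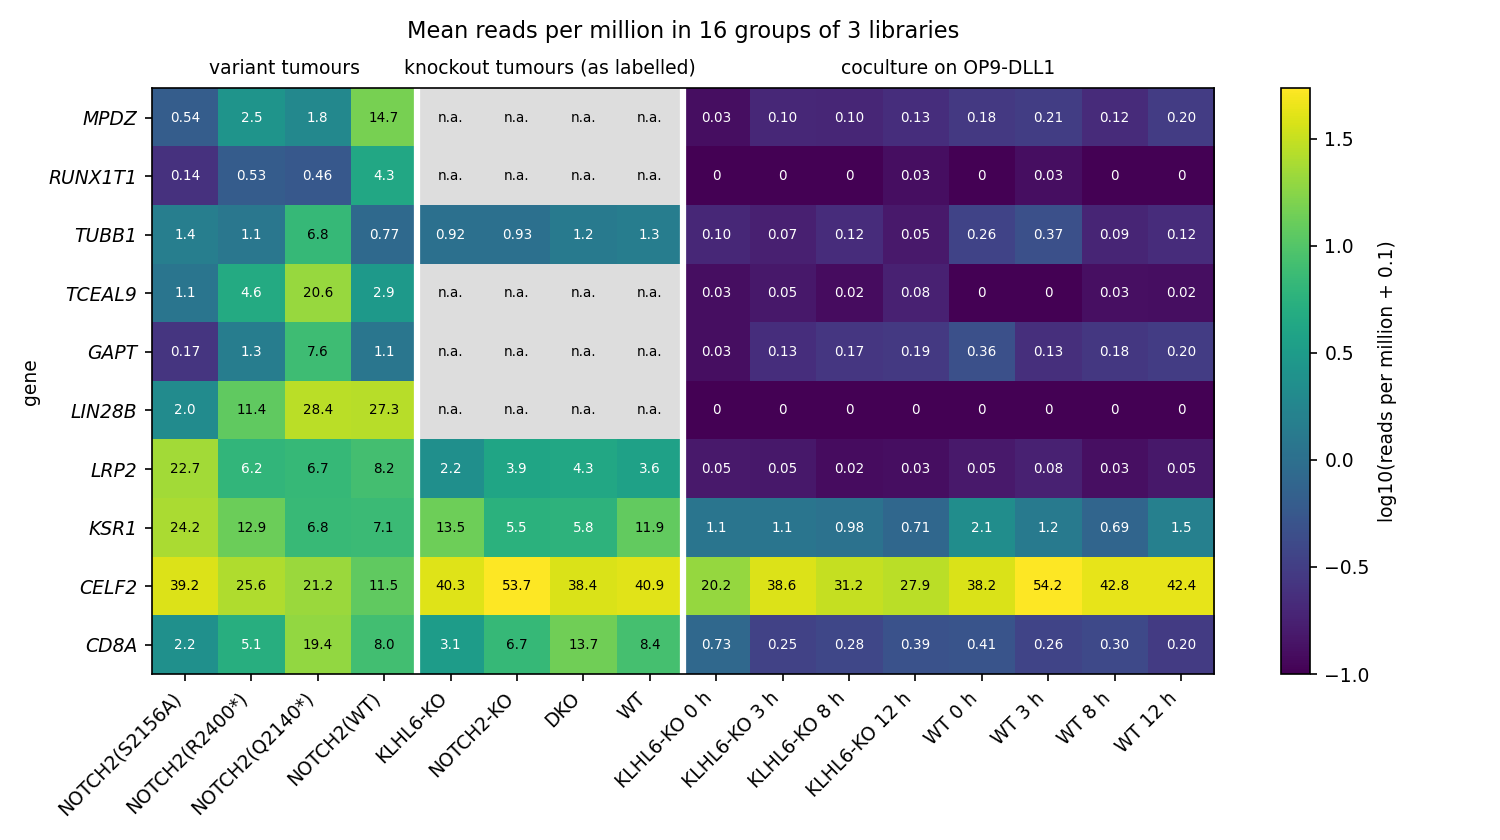
Mean level (RPM, reads per M reads) of the 10 genes (rows) in the 16 groups of 3 libraries (columns), coloured on a log10 scale after adding 0.1, with the mean written in each cell and n.a. where a gene was not analysed here. CELF2 is present in every group, from 11.5 to 54.2 RPM, and LIN28B, at 2.0 to 28.4 in the variant tumours, is at 0 in all coculture groups.

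KSR1 and CELF2 were the members above the filter in coculture, 2 of 10. At each of the 4 times, CELF2 stood below its WT level in the KLHL6-KO cells. At 0 h it had 265.8, 233.4 and 242.6 normalised counts in KLHL6-KO cells, against 486.4, 469.8 and 390 in WT cells. At 3 h the values were 525.6, 453.7 and 486 in KLHL6-KO cells, against 676, 685.4 and 700.9 in WT cells. At 8 h they were 397, 409 and 390.6 in KLHL6-KO cells, against 618.2, 473 and 540 in WT cells, and at 12 h 363.7, 372.1 and 357.4 in KLHL6-KO cells, against 557.7, 587.5 and 537.6 in WT cells. The libraries of the 2 genotypes do not overlap at any time. The log2 difference of KLHL6-KO from WT was -0.85 ± 0.08 SE at 0 h (limma adjusted p = 4.99e-09), -0.49 ± 0.08 at 3 h (limma adjusted p = 0.00013), -0.44 ± 0.08 at 8 h (limma adjusted p = 0.00096) and -0.62 ± 0.08 at 12 h (limma adjusted p = 6.64e-06). KLHL6 itself was lower in the KLHL6-KO cells at each time, with a log2 difference of -1.17 ± 0.12 SE at 0 h (limma adjusted p = 1.76e-06). Over time CELF2 rose in both genotypes, with a mean log2 difference of the 3 later times from 0 h of 0.74 ± 0.07 SE in KLHL6-KO cells (limma joint adjusted p = 8.88e-11) and 0.41 ± 0.07 in WT cells (limma joint adjusted p = 1.04e-06). The genotypes' time courses differed by 0.33 ± 0.10 on average (limma joint adjusted p = 0.053), and this passed the threshold when the third WT library at 0 h, the first WT library at 8 h, the first KLHL6-KO library at 0 h or the second KLHL6-KO library at 3 h was left out (limma adjusted p = 0.0059 to 0.048).

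KSR1 was low in culture. At 0 h it had 16.5, 11.8 and 10.8 normalised counts in KLHL6-KO cells, against 26.6, 27.0 and 20.02 in WT cells (log2 difference -0.83 ± 0.31 SE, limma adjusted p = 0.048). This call was lost without the filter (limma adjusted p = 0.086), by DESeq2 (adjusted p = 0.058), and when the first or second WT library or the second or the third KLHL6-KO library at 0 h was left out (limma adjusted p = 0.13 to 0.15). At 12 h it had 11.5, 8.36 and 8.24 in KLHL6-KO cells, against 25.8, 18.8 and 14.1 normalised counts in WT cells (log2 difference -0.90 ± 0.31 SE, limma adjusted p = 0.12), without overlap. The difference was -0.23 ± 0.31 at 3 h (limma adjusted p = 0.72) and 0.47 ± 0.31 at 8 h (limma adjusted p = 0.47). In KLHL6-KO cells the KSR1 means were 13.01 normalised counts at 0 h, 13.5 at 3 h, 12.4 at 8 h and 9.37 at 12 h (limma joint adjusted p = 0.62). In WT cells KSR1 changed over time, with means of 24.5 at 0 h, 15.45 at 3 h, 8.72 at 8 h and 19.6 at 12 h (limma joint adjusted p = 0.0017). The difference between these courses had a limma joint adjusted p of 0.082, and of 0.028 without the third WT library at 8 h and 0.033 without the first KLHL6-KO library at 3 h.

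**Figure D5:**
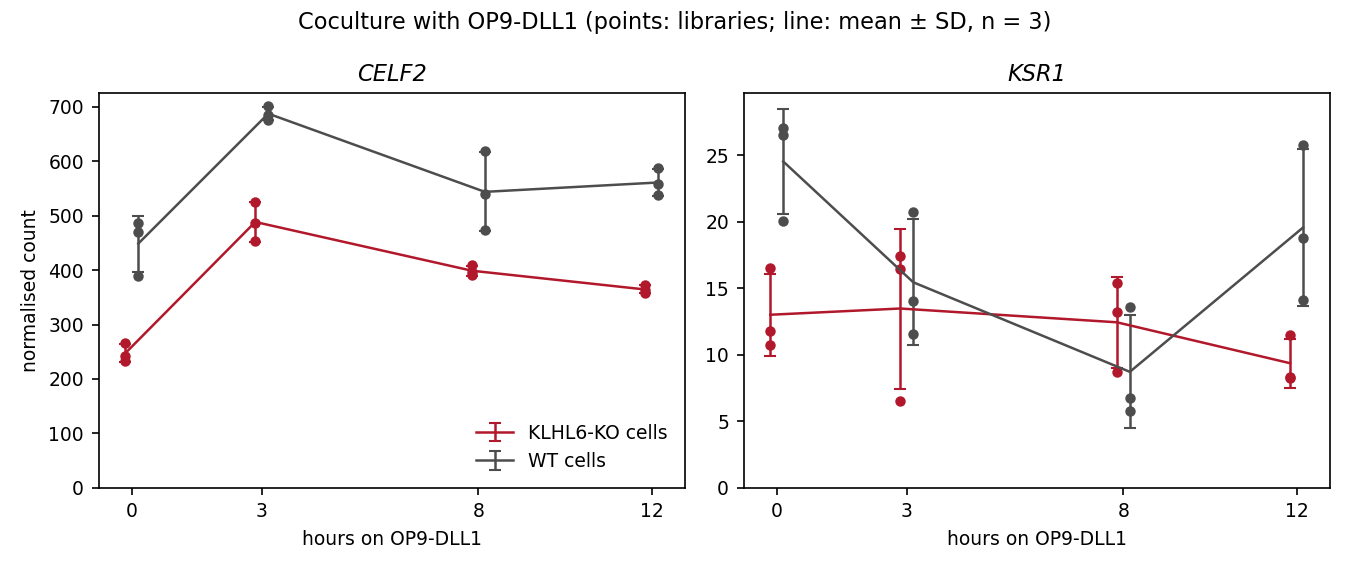
CELF2 and KSR1 in KLHL6-KO cells (red) and WT cells (grey) against hours on OP9-DLL1, as normalised counts of each library (points) and mean ± SD (line and bars, n = 3). CELF2 is lower in KLHL6-KO cells at all 4 times, and KSR1 dips to a mean of 8.72 in WT cells at 8 h.

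Read against all 15025 genes tested in coculture, KLHL6-KO differed from WT for CELF2 and KSR1 at 0 h (26.1% of all genes were called) and for CELF2 at 3 h (7.82%), 8 h (4.34%) and 12 h (3.39%). CELF2 changed over time in KLHL6-KO cells, as 60.7% of all genes did, and both genes in WT cells, as 76.7% did. The share of all genes called for genotype by time was 12.4%. Of the genes related to CELF2, the 4 tested CELF and MBNL genes, 0 were called at any of the 4 times between genotypes (limma). CELF2 was lower in cultured KLHL6-KO cells, while in the tumours its difference was -0.09 in those labelled KLHL6-KO and 0.43 in NOTCH2-KO, both against WT tumours, and its level was higher in all 3 variants than in the NOTCH2(WT) tumours.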

How the data were processed

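Poly(A) RNA was sequenced from 48 libraries with a directional kit, per the labels' protocols. STAR, SAMtools and DESeq2 with genome GRCh38 were the authors' tools, per the submitters' processing notes. For versions, read counter and annotation, nothing is given in the sources used here. What the authors deposited is a normalised signal: each library's gene counts over its own size factor, with the experiments scaled apart. All values (100%) were whole multiples of 1 step within 0.02 steps, so reads were recovered by division. Left out were rows with a date for a name, which held up to 0.252% of a library's reads, and 1 row called 0 per tumour set. Names were matched to GENCODE 29 and RefSeq synonyms. Every knockout-tumour row holds 121 or more reads over the 12 libraries.

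Tests used limma 3.58.1 (R 4.3.3; trend and robust) on log2(value + 2) over all libraries of an experiment, for genes reaching 10 in 3 or more libraries (15025 in coculture, 14002 in the knockout tumours, 15349 in the variant tumours); called means a Benjamini-Hochberg adjusted p under 0.05 over all of them. Alternatives were a pseudocount of 8, no filter, TMM scaling, edgeR 4.0.16, DESeq2 1.42.0, a replicate block, only the groups compared, and leaving out each library. The fits were tested on simulated data. The 10 members and all gene lists were chosen with earlier results of these data known, so they are no independent evidence. Named genes are the members, NOTCH2 and KLHL6, the 2 nearest profiles of each member, list genes called at least 2-fold against NOTCH2(WT) (at most 3 per list), and called neighbours with a range of at least 1. Replicate pairs all differed by more than sampling noise (chi-square 1.37 to 65.8 per degree of freedom), and each library was counted as 1 sample. That spread cannot show whether the libraries of a group came from separate mice or cell populations.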

Additional observations from a re-analysis of the deposited data

Results flagged for a closer look

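CD8A had opposite differences in the 2 backgrounds of the knockout tumours, and the test of that difference passed its threshold: the interaction of the KLHL6 and NOTCH2 labels was 2.41 ± 0.22 SE on the log2 scale (limma adjusted p = 6.93e-06, 3 libraries in each of 4 groups). With NOTCH2 labelled as lost, CD8A averaged 167.2 ± 27.0 normalised counts in the tumours labelled DKO, against 83.0 ± 4.95 in the NOTCH2-KO tumours. With NOTCH2 labelled as present, it averaged 36.3 ± 3.51 in the tumours labelled KLHL6-KO, against 100.9 ± 8.05 in the WT tumours (SD, n = 3 each). KLHL6 RNA was higher than in WT in the tumours labelled KLHL6-KO and also in the NOTCH2-KO tumours, so the direction rests on the labels.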

How the results depend on the processing

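No called difference changed its sign in the settings tried. Of the members' differences under the alternatives, 870 values kept their call and size, 13 moved by more than the spread between replicates, 18 lost their call and 7 gained one. Apart from 1 gained under the replicate block, given below, they stand beside their results. The 13 were differences in the variant tumours, under a pseudocount of 8 or, for the lowest genes, by edgeR and DESeq2. The members were chosen on their variant-tumour differences, which are among the values counted, so calls and signs kept there are not read as support. With a pseudocount of 8, RUNX1T1 in S2156A against NOTCH2(WT) differed by -2.78; it differed by -4.84 by edgeR and -4.92 by DESeq2, beside -3.98. With only the groups compared, called genes numbered 1291 in place of 2446 in the tumours labelled KLHL6-KO, 231 in place of 1310 in those labelled DKO, 2075 in place of 1175 for KLHL6-KO against WT cells at 3 h and 3915 in place of 2333 for S2156A against NOTCH2(WT). The shared replicate numbers were not taken to pair the libraries, since the labels tie them to nothing shared and not every same-numbered pair correlated above 0.1 (correlation of same-numbered deviations -0.09 to 0.21 in coculture, -0.19 to 0.22 in the knockout tumours, -0.07 to 0.03 in the variant tumours; 18 of 24, 5 of 12 and 1 of 12 libraries correlated best with their own number). The 18 of 24 in coculture are a hint from the data, not from the design, that those numbers share something. A replicate block gave 1814 in place of 1175 calls at 3 h, 1027 in place of 652 at 8 h, 784 in place of 510 at 12 h and 2822 in place of 1858 for genotype by time, where CELF2 then passed (limma adjusted p = 0.018). Leaving out 1 library at a time gave 1132 to 2776 calls in the tumours labelled KLHL6-KO, 2875 to 4507 in NOTCH2-KO, 424 to 1591 in those labelled DKO and 760 to 2410 for the interaction; 2683 to 4483, 647 to 1035, 381 to 659 and 282 to 572 for KLHL6-KO against WT cells at 0, 3, 8 and 12 h; 1184 to 2666 for genotype by time; and 1568 to 1903, 716 to 1293 and 2063 to 2958 for S2156A, R2400* and Q2140* against NOTCH2(WT). The single libraries that moved a count by over 1.5 times were KLHL6-KO replicates 1 and 3, DKO replicates 2 and 3, and, for the interaction, WT replicate 1, KLHL6-KO replicates 1 and 3, NOTCH2-KO replicates 1 and 3 and DKO replicate 1. In coculture they were KLHL6-KO replicates 2 and 3 and WT replicates 1 and 2 at 3 h, KLHL6-KO replicates 1 and 3 at 8 h, KLHL6-KO replicate 3 at 12 h and both replicates 2 at 0 h for genotype by time. In the variant tumours they were NOTCH2(WT) replicates 1 and 3 for R2400* and replicate 1 for Q2140*. The cause of these shifts was not tested. Depth limits the low levels most: S2156A values of GAPT and RUNX1T1 rest on 7 and 6 reads.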
